A study of Mus musculus with 12 samples.

Results

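Collagens, laminins and related matrix proteins made up 88 of the 32546 genes in the table of unique molecular identifier (UMI) counts. Members were chosen by symbol alone: collagen chains, laminin chains, the link proteins Hapln1 to Hapln4, the ADAMTS and ADAMTS-like genes, the lecticans Vcan, Acan, Bcan and Ncan, the tenascins Tnc and Tnr, and fibronectin (Fn1), with symbols ending in "os" left out. They comprised 11 fibrillar collagen genes, 12 of basement membrane and network collagens, 9 of fibril-associated (FACIT) collagens, 4 of transmembrane collagens, 8 of collagens VI, XXVI and XXVIII, 11 laminin chains, 4 lecticans, 4 link proteins, 3 genes of tenascins and fibronectin, 17 ADAMTS proteases and 5 ADAMTS-like proteins.

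The tissue was the hippocampus of male ICR mice of 8 weeks, profiled by photo-isolation chemistry (PIC), in which caged reverse transcription primers are freed by light only in the region of interest, so that only its cDNA is amplified. The 3 irradiated regions were CA1, CA3 and the dentate gyrus (DG). Each was taken from 4 kinds of section: fresh-frozen sections permeabilized with Triton X-100 and then 0.1 N HCl for 5 min, fresh-frozen sections heated in TE buffer at 70 °C for 1 h, and frozen or paraffin sections of tissue fixed in 4% paraformaldehyde, both also heated in TE. They are called HCl, TE, fixed frozen and paraffin below. The paper's protocol also prescribes a short fixation of every section on the slide in 4% paraformaldehyde before permeabilization. Fixed frozen against TE thus compares tissue fixed before sectioning with tissue fixed only on the slide. Every combination was 1 library that pooled 4 barcoded replicates, so that a difference between regions within a condition and a difference between their libraries cannot be told apart. The sources describe the 4 as biological replicates but do not say which mouse gave which, and p-values then measure the spread between these samples. The sample titles name CA3 where the series text names CA2. Over the sums of each library, 6 of 7 listed CA3 neuron genes were higher in CA3 than in DG and all 7 were lower in CA1 than in CA3. Of 5 CA2 neuron genes tested, 0 were higher and 1 was lower in CA3 than in DG. In CA1 against CA3, 0 of these were higher and 0 lower. The titles were followed.

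The brain has little fibrous matrix. Between its cells, lecticans bind hyaluronan through link proteins and are cross-linked by tenascins, most densely in the perineuronal nets around some neurons. Collagen IV and laminins form the basement membrane of vessels, fibrillar collagens lie in the meninges and around larger vessels, and ADAMTS proteases cleave lecticans and procollagens.

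The members held 29256 of 18317781 UMIs (0.16%), and 10 of them (Bcan, Col11a1, Ncan, Hapln4, Col25a1, Col4a2, Col4a1, Lamb1, Tnr and Col1a2) held 59.6% of these. A replicate had between 127253 and 933756 UMIs in HCl, between 294445 and 1111804 in TE, between 52800 and 307145 in fixed frozen and between 35932 and 223055 in paraffin. All 88 members had at least 1 UMI in HCl and in TE, against 71 in fixed frozen and 84 in paraffin. After every replicate was thinned to 35932 UMIs the numbers were 71, 68, 53 and 69, so fewer members were detected in fixed frozen sections also at equal depth. Over the 48 replicates 42 members had more than 100 UMIs and 21 had fewer than 30.

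Levels are given as CPM, the counts scaled to an equal UMI total for every replicate. The summed level of the 88 members in HCl was 2025 ± 261.3 CPM in CA1, 1979 ± 183.1 in CA3 and 1860 ± 138.4 in DG (mean ± SD, n = 4 each). It was 1313 ± 151.2, 1470 ± 190.1 and 1429 ± 129.4 CPM in TE, and 766.3 ± 196.9, 778.3 ± 67.34 and 757.1 ± 90.11 CPM in fixed frozen. In paraffin it was 1365 ± 348.8, 1383 ± 200.7 and 1223 ± 148.4 CPM. The regions of a condition lay within or close to each other's spread, whereas the fixed frozen sections lay lowest in each region.

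**Figure D1:**
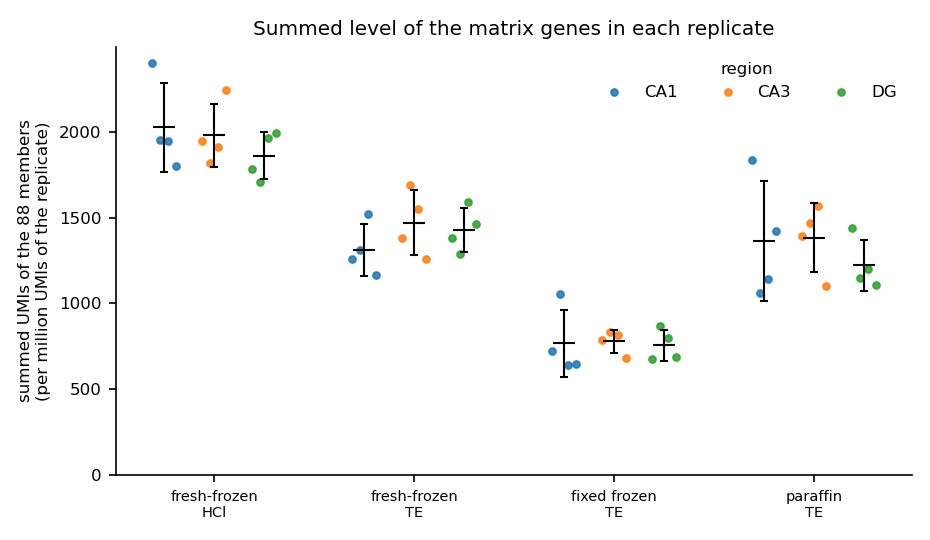
Summed level of the 88 members in CPM (y axis) for each replicate (points) with mean and SD, by condition and region (x axis). The means of the 3 regions lie between 1860 and 2025 CPM in HCl and between 757.1 and 778.3 CPM in fixed frozen sections.

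Several members are genomic neighbours, which bears on how their reads can be assigned. In GRCm38 coordinates, Bcan (chromosome 3, 87987531 to 88000230, minus strand) lies 21519 bases from Hapln2, Ncan (chromosome 8, 70093085 to 70120873, minus strand) lies 2222 bases from Hapln4 (70083457 to 70090862, plus strand), Acan lies 2 bases from Hapln3, and Vcan lies 43659 bases from Hapln1. Each lectican thus stands beside a link protein gene. Col4a1 (chromosome 8, 11198423 to 11312826, minus strand) and Col4a2 (11312805 to 11449287, plus strand) run head to head, and their annotated first exons share 22 bases. That stretch is shown because the 2 genes read it in opposite directions. It is printed 5′ to 3′ on the plus strand of GRCm38.p6 from RefSeq, chr8:11312801-11312830, with the shared bases in capitals:
Col4a1 and Col4a2 shared start: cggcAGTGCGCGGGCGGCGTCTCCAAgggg

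A RefSeq window of 250 bases before to 50 bases after the start was found for 61 of the 88 members. The windows of Col4a1 and Col4a2 overlap by 78 bases and have a GC content of 74.0% and 73.7%, against a median of 52.7% over 32817 windows. GGGCGG, searched on both strands, occurs in both windows and in 35.6% of all windows. The only GGGCGG in the Col4a1 window lies in the shared stretch printed above, so the same site is also counted in the Col4a2 window. CCAAT also occurs in both and in 37.4% of all, and TATAAA in neither and in 13.6% of all. In total 23 members share exon bases with another gene. The counting command printed in the paper holds no strand option and none for counting reads that overlap several genes. Reads within shared bases could thus not be assigned by strand, and whether they were lost or counted was not tested. Among the members described below, those that share exon bases are Col4a1 and Col4a2 (with each other), Tnr, Adamts4, Fn1, Col3a1 and Tnc. The UMIs are 3′ tags, so the shared start of Col4a1 and Col4a2 lies far from the counted ends.

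Regions were compared by edgeR's quasi-likelihood test, fitted over all genes with at least 10 UMIs in the comparison, with Benjamini-Hochberg adjusted p under 0.05 as a call. Scarce genes could pass the filter of 10 UMIs only through the region where they were higher. Hapln2 and Col13a1 did so in HCl, Col4a4 in TE, and Hapln1 and Col1a2 in fixed frozen sections. Their ratios and bounds given below were thus selected toward large differences. Differences are log2 fold changes with their standard error. To use all conditions at once, UMIs were also summed per library and the 12 sums were fitted with the condition as a block. In this fit 82 members were tested. In CA1 against DG, 4 were higher and 8 lower (4.64% and 5.52% of all genes), and in CA3 against DG 7 were higher and 4 lower (3.88% and 4.30%). In CA1 against CA3, 0 were higher and 7 lower (2.05% and 2.61%). The median member differed by −0.09, −0.17 and −0.05, against 0.00, −0.01 and 0.02 for all genes. The members' medians thus lay slightly below those of all genes, and against DG their calls went in both directions. The comparisons share libraries (DG in the CA1 and CA3 contrasts), so their counts are not independent of each other.

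Within HCl, 64 members were tested in CA1 against DG, with 10 higher and 9 lower (8.61% and 8.35% of all genes). In CA3 against DG, 7 were higher and 3 lower of 70 (4.46% and 4.53%), and in CA1 against CA3, 1 was higher and 4 were lower of 69 (4.07% and 5.06%). Within TE, 3 were higher and 6 lower of 61 in CA1 against DG (5.15% and 4.99%), 5 higher and 3 lower of 64 in CA3 against DG (4.35% and 3.56%), and 0 higher and 6 lower of 60 in CA1 against CA3 (1.99% and 2.41%). In the fixed tissues 15 to 29 members reached 10 UMIs and few were called. In fixed frozen sections 0 members were higher and 2 lower of 20 in CA1 against DG (3.36% and 4.78%), 2 higher and 2 lower of 20 in CA3 against DG (4.29% and 4.98%), and 0 higher and 1 lower of 15 in CA1 against CA3 (3.34% and 3.86%). In paraffin 0 of 24 members were called in CA1 against DG by edgeR (0.870% and 2.42% of all genes), with 2 at an unadjusted level under 0.05 and 0 called by DESeq2. In CA3 against DG, 1 was higher and 0 lower of 29 (1.93% and 1.28%), and in CA1 against CA3, 0 higher and 1 lower of 17 (0.640% and 1.72%). Across conditions 21 members were called at least once in CA1 against DG and 7 of them in 2 or more conditions. The numbers were 15 and 4 in CA3 against DG and 8 and 5 in CA1 against CA3, and 0 members were called in opposite directions. Recurrence was not counted over all genes, so these numbers cannot be read as a trait of the members.

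Leaving out 1 replicate moved some of these counts by more than 1.5 times. In HCl, CA1 against DG gave 12 calls without CA1 replicate 2, 12 without DG replicate 2 and 10 without DG replicate 3 in place of 19, CA3 against DG gave 6 without DG replicate 3 in place of 10, and CA1 against CA3 gave 3 without CA1 replicate 2 in place of 5. In TE, CA3 against DG gave 5, 4, 5 and 5 without CA3 replicate 2 and DG replicates 1, 3 and 4 in place of 8, and CA1 against CA3 gave 3 without CA1 replicate 2 in place of 6. In the fit of library sums, CA1 against DG gave 7 without the HCl libraries in place of 12, CA3 against DG gave 5 without HCl and 6 without TE in place of 11, and CA1 against CA3 gave 3 without HCl and 1 without TE in place of 7. DESeq2 called 10 members in place of 19 in CA1 against DG in HCl and 4 in place of 8 in CA3 against DG in TE.

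**Figure D2:**
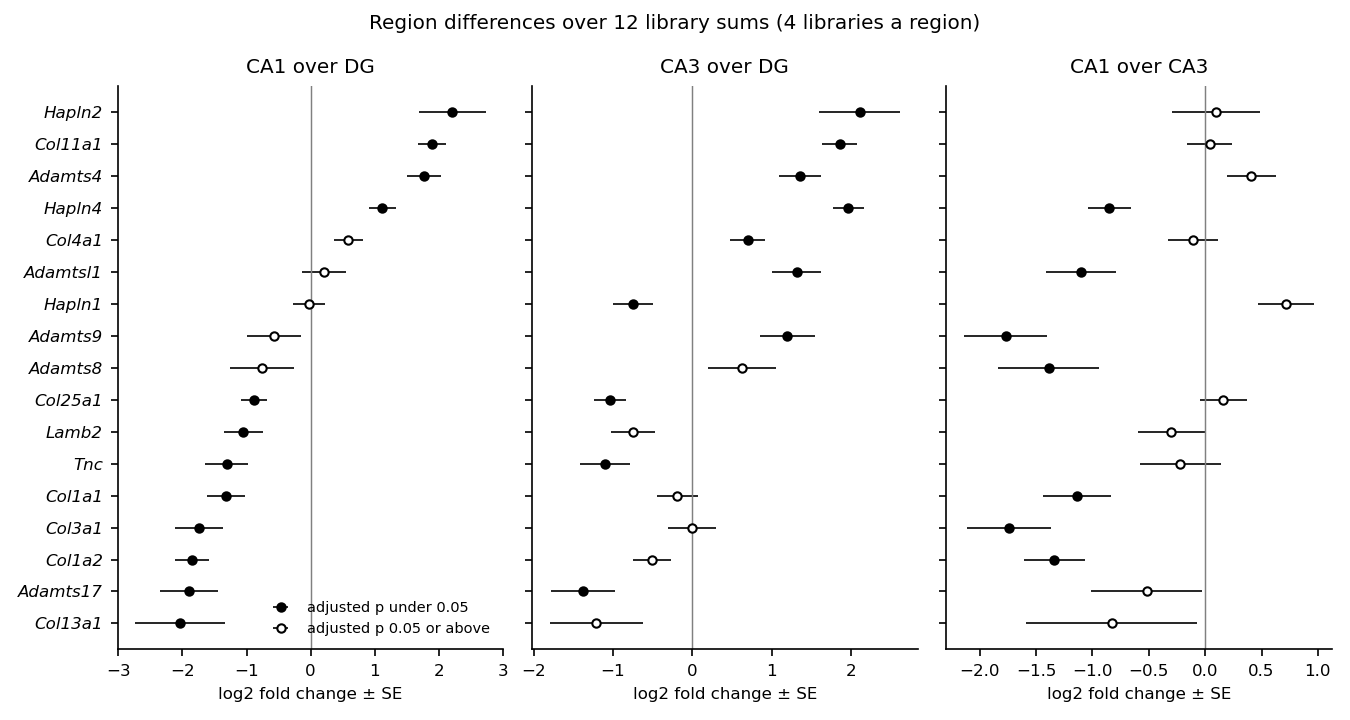
Log2 fold changes (x axis) with standard errors for the members called in any region pair over the 12 library sums (y axis), with filled points for adjusted p under 0.05. Hapln4 in CA3 against DG (1.97) and Col11a1 in CA1 against DG (1.90) are higher, and Col1a2 in CA1 against DG (−1.85) and Adamts9 in CA1 against CA3 (−1.77) are lower.

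The link protein gene Hapln4 showed the most regular regional pattern. Hapln4, also called Bral2, stabilizes lecticans on hyaluronan in the perineuronal nets of many neurons. In HCl it stood at 185, 107, 131 and 165 CPM in the 4 CA1 replicates, at 184, 191, 169 and 178 CPM in CA3, and at 79.5, 49.6, 66.0 and 54.4 CPM in DG. In TE it stood at 75.8, 61.8, 86.4 and 56.7 CPM in CA1, at 94.3, 126, 106 and 104 CPM in CA3, and at 28.5, 22.1, 52.0 and 30.6 CPM in DG. Every CA1 and CA3 replicate lay above every DG replicate in both conditions. In fixed frozen sections CA3 held 102, 141, 164 and 170 CPM, CA1 29.0, 88.5, 34.1 and 55.4 CPM, and DG 0, 39.1, 20.6 and 9.17 CPM. In paraffin CA3 held 141, 322, 230 and 100 CPM, CA1 107, 54.0, 28.2 and 27.8 CPM, and DG 33.9, 35.6, 53.8 and 0 CPM. CA3 and DG did not overlap in any of the 4 conditions.

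Hapln4 was higher in CA3 than in DG by 1.57 ± 0.18 in HCl (adjusted p = 2.2e-06), 1.72 ± 0.23 in TE (adjusted p = 5.6e-06), 2.66 ± 0.39 in fixed frozen (adjusted p = 1.6e-09) and 2.49 ± 0.42 in paraffin (adjusted p = 1.8e-05). These 4 calls remained when any single replicate was left out. Against DG it was also higher in CA1, by 1.21 ± 0.23 in HCl and 1.10 ± 0.25 in TE (adjusted p = 0.00011 and 0.0021). Over the library sums the differences were 1.97 ± 0.20 for CA3 against DG (adjusted p = 3.9e-20), 1.12 ± 0.21 for CA1 against DG (adjusted p = 2.5e-06) and −0.85 ± 0.19 for CA1 against CA3 (adjusted p = 0.0004), so that the levels ran from CA3 over CA1 to DG. Within single conditions CA1 was called below CA3 only in fixed frozen (−1.32 ± 0.39, adjusted p = 0.013) and paraffin (−1.90 ± 0.50, adjusted p = 0.012). The first of these was lost without CA1 replicate 3 or CA3 replicate 3, and the other without CA1 replicate 3, CA1 replicate 4 or CA3 replicate 2. The neighbouring Ncan, read on the opposite strand, was not called over the library sums, where it differed by 0.15 ± 0.19 in CA1 and −0.07 ± 0.19 in CA3 against DG (adjusted p for CA1 = 0.72).

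The other link proteins each had a pattern of their own. Hapln2, or Bral1, which binds versican and brevican at nodes of Ranvier, was scarce: in HCl it stood at 17.8, 4.92, 10.3 and 7.86 CPM in CA1, at 15.0, 7.50, 9.88 and 13.7 CPM in CA3, and at 2.84, 0, 1.27 and 4.19 CPM in DG. The DG replicates lay below all others. With 3 UMIs in DG, the ratio was 7.50 for CA1 (95% exact interval 2.30 to 38.7, 26 UMIs) and 7.72 for CA3 (2.45 to 39.1, 39 UMIs), counting error only. Hapln2 was higher over the library sums by 2.21 ± 0.52 in CA1 and 2.11 ± 0.51 in CA3 than in DG (adjusted p = 0.00053 and 0.00091), and without the HCl libraries by 1.96 (adjusted p = 0.073) and 1.70 (adjusted p = 0.16). Beside it, the summed level of 8 oligodendrocyte genes was 13843 CPM in CA1 (range over replicates 10454 to 20636), 9965 in CA3 (8043 to 11500) and 4397 in DG (3694 to 5966) in HCl, and all 8 were higher in CA1 and in CA3 than in DG over the library sums. Their part in the result was not tested, and in sections like these fewer cells of a type and less RNA per cell cannot be told apart.

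Hapln1, the link protein first known from cartilage, ran the other way in CA3. It stood at 41.0 to 62.2 CPM in CA3 of TE against 57.9 to 85.6 CPM in DG, and at 19.1 to 34.6 CPM against 14.2 to 57.1 CPM in HCl, so that the groups overlapped. It was lower in CA3 than in DG over the library sums (−0.75 ± 0.25, adjusted p = 0.037), a call that was lost without the HCl, the TE or the fixed frozen libraries (adjusted p = 0.26 without HCl). In fixed frozen sections it had 0 UMIs in CA3 and 14 in DG, at least 2.47-fold lower against a floor of 3 counts over the 4 CA3 replicates, and this call held in 2 of 7 fits that left out a replicate. Hapln3 had 7 UMIs in all and was tested in no comparison.

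Of the lecticans themselves, 0 of 4 were called between regions over the library sums by edgeR. Bcan (brevican), the member with the most UMIs, stood at 204 to 345 CPM in CA1, 207 to 321 in CA3 and 270 to 373 in DG of HCl. It differed by 0.24 ± 0.17 in CA1 and −0.15 ± 0.17 in CA3 against DG (adjusted p for CA1 = 0.45). Vcan (versican) differed by 0.49 ± 0.29 and 0.45 ± 0.29 (adjusted p for CA1 = 0.35) and Acan (aggrecan), the main lectican of perineuronal nets, by 0.06 ± 0.37 and −0.57 ± 0.38. The exception within a condition was Ncan (neurocan) in HCl, at 141, 172, 160 and 165 CPM in CA1, 116, 107, 130 and 75.2 in CA3, and 105, 88.4, 122 and 100 in DG. Its CA1 replicates lay above all others, and it was higher than in DG by 0.60 ± 0.19 (adjusted p = 0.027), but the call was lost with DESeq2 (adjusted p = 0.062) and without CA1 replicate 2 or 3 or DG replicate 2 or 4 (0.51, adjusted p = 0.11 without DG replicate 2). In TE its means were 111 ± 5.13, 102 ± 15.2 and 112 ± 27.8 CPM.

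**Figure D3:**
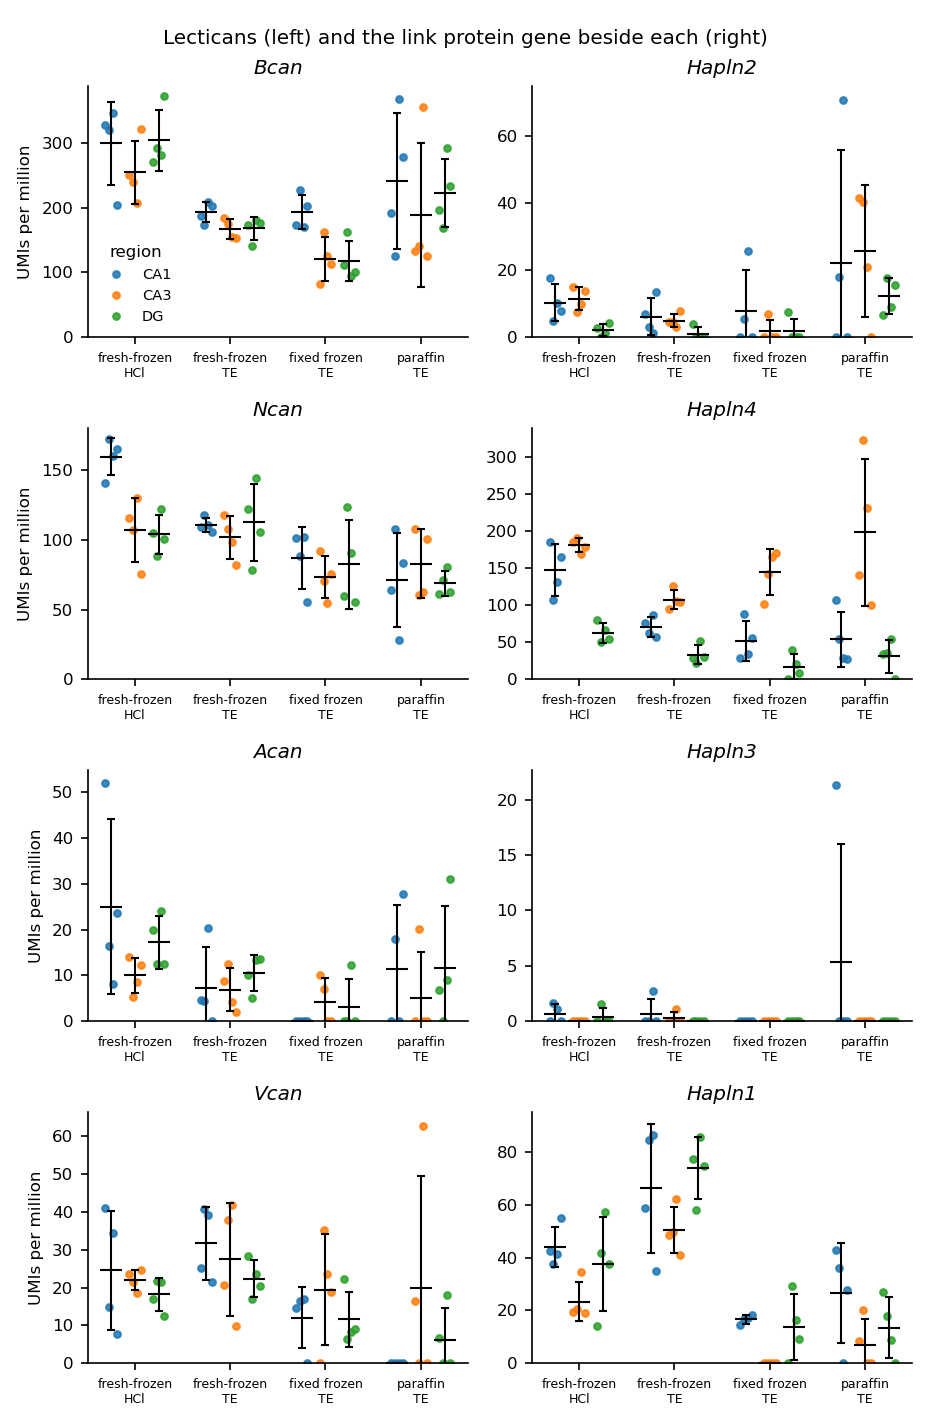
CPM of each lectican (left panels) and its neighbouring link protein gene (right panels) per replicate, with mean and SD, by condition and region. Hapln4 separates CA3 from DG in all 4 conditions, whereas Bcan in HCl ranges from 204 to 345 CPM in CA1 and from 270 to 373 CPM in DG.

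Of the matrix glycoproteins that tie lecticans together, Tnc was lower outside the DG. Tenascin C is a large adhesion-modulating glycoprotein made mainly by glia. Its replicates in HCl stood at 53.9, 14.0, 33.0 and 33.5 CPM in DG, at 17.8, 3.28, 16.1 and 7.86 CPM in CA1 and at 7.50, 4.28, 14.8 and 19.1 CPM in CA3. The lowest DG replicate lay within the range of both other regions. Tnc differed from DG over the library sums by −1.31 ± 0.34 in CA1 (adjusted p = 0.0024) and −1.10 ± 0.32 in CA3 (adjusted p = 0.012). The CA1 call was lost without the HCl libraries and the CA3 call without HCl or TE and with DESeq2. Of 8 astrocyte genes 3 were lower and 0 higher than in DG in both CA1 and CA3, with medians of −0.33 and −0.27, and their summed means in HCl were 3808, 4377 and 4962 CPM in CA1, CA3 and DG. Their part in the Tnc difference was not tested. Tnr, which cross-links lecticans in nets, differed by −0.03 ± 0.23 and −0.08 ± 0.23, and Fn1, which joins collagens to integrins, by −0.07 ± 0.27 and 0.09 ± 0.26.

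Col4a1 and Col4a2 encode the 2 chains of the collagen IV found in all basement membranes, and calls outside the DG were modest and uneven. Col4a1 stood at 119, 123, 93.2 and 134 CPM in CA1, at 109, 71.8, 117 and 130 in CA3 and at 76.6, 52.7, 47.0 and 100 in DG of HCl, with overlap between DG and both other regions. It was higher by 0.83 ± 0.24 in CA1 and 0.77 ± 0.24 in CA3 there (adjusted p = 0.01 and 0.042). The CA1 call was lost without DG replicate 2 (adjusted p = 0.055) or 3 (0.63, adjusted p = 0.092). The CA3 call was lost with DESeq2 (adjusted p = 0.078) and held in 3 of 8 fits that left out a replicate, with an adjusted p up to 0.19 without DG replicate 3. After thinning to equal depth neither was called (0.18 and 0.17). The library sums gave a difference of 0.70 ± 0.22 in CA3 (adjusted p = 0.023) and of 0.59 ± 0.22 in CA1 (adjusted p = 0.072). The CA3 call rested on several conditions together, since it was lost without HCl (adjusted p = 0.23), without TE and without paraffin. Col4a2 differed by 0.59 ± 0.22 in CA3 (adjusted p = 0.065) and by 0.26 ± 0.23 in CA1 (adjusted p = 0.57). In TE it stood at 37.5 to 63.4 CPM in CA3 and 25.6 to 35.2 CPM in DG without overlap (0.81 ± 0.25, adjusted p = 0.044), but this call held in 1 of 8 fits that left out a replicate. The summed level of 8 endothelial genes was 416.7, 438.7 and 485.9 CPM in CA1, CA3 and DG of HCl, and 0 of them were called between regions over the library sums by edgeR.

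Of the 11 laminin chains, 1 was called over the library sums. Lamb2, the beta 2 chain of vascular and synaptic laminins, was lower in CA1 than in DG (−1.05 ± 0.30, adjusted p = 0.0068). In HCl it stood at 28.7, 18.0, 28.8 and 39.3 CPM in CA1 and at 59.6, 57.4, 63.5 and 29.3 CPM in DG, where a single DG replicate lay in the CA1 range. Without the HCl libraries the adjusted p was 0.21. Lamb1, the beta 1 chain and the laminin with the most UMIs, was lower in CA1 than in CA3 in TE, at 35.6, 39.2, 39.2 and 29.7 against 59.0, 63.9, 54.7 and 76.2 CPM (−0.79 ± 0.21, adjusted p = 0.027). The groups did not overlap, yet the call held in 2 of 8 fits that left out a replicate, and over the library sums it missed the threshold (−0.63 ± 0.22, adjusted p = 0.074).

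Fibrillar collagens differed between regions in opposite directions. Col11a1 (chromosome 3, 114030540 to 114220718, plus strand), which encodes a chain of the minor fibrillar collagen XI, was higher in both CA regions than in DG. In HCl it stood at 296, 223, 175 and 149 CPM in CA1, at 78.3, 172, 154 and 219 CPM in CA3 and at 39.7, 43.4, 52.0 and 79.5 CPM in DG. In TE it stood at 91.9, 140, 126 and 81.0 CPM in CA1, at 45.7, 234, 136 and 82.1 CPM in CA3 and at 20.3, 18.7, 35.2 and 10.2 CPM in DG. The DG replicates lay lowest in both conditions, except that the highest DG replicate in HCl reached past the lowest CA3 replicate.

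Col11a1 was higher in CA1 by 2.09 ± 0.23 in HCl (adjusted p = 3.4e-09) and 2.32 ± 0.26 in TE (adjusted p = 2.8e-08), and in CA3 by 1.62 ± 0.26 in HCl, 2.54 ± 0.36 in TE and 2.61 ± 0.73 in fixed frozen (adjusted p = 0.00016, 1.3e-05 and 0.007). The last was lost without CA3 replicate 4. In paraffin it was not called, at 0, 72.0, 84.8 and 167 CPM in CA1, 24.8, 90.7, 83.7 and 125 in CA3 and 54.2, 44.5, 58.3 and 15.6 in DG. Over the library sums the differences from DG were 1.90 ± 0.22 in CA1 and 1.86 ± 0.22 in CA3 (adjusted p = 2.0e-15 and 1.3e-14), and CA1 and CA3 differed by 0.04 ± 0.20 (adjusted p = 0.98).

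The collagen I and III genes went the other way and were lowest in CA1. Collagens I and III are the bulk fibrillar collagens of connective tissue, and Col1a1 and Col1a2 encode the 2 chains of collagen I. In TE, Col1a2 (chromosome 6, 4504814 to 4541544) stood at 17.2, 10.5, 10.8 and 18.9 CPM in CA1, at 28.0, 42.3, 64.3 and 46.9 CPM in CA3 and at 65.1, 40.9, 102 and 84.9 CPM in DG. In HCl it stood at 47.9, 16.4, 40.3 and 31.4 CPM in CA1, at 60.0, 72.8, 70.4 and 46.5 in CA3 and at 76.6, 80.7, 121 and 67.0 in DG. The CA1 replicates lay below all DG replicates in both conditions. In fixed frozen sections Col1a2 had 0 UMIs in CA1 and 13 in DG, at least 2.30-fold lower, a call that held in 1 of 7 fits that left out a replicate.

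For Col1a2, CA1 lay below DG with log2 differences of −2.33 ± 0.30 in TE (adjusted p = 5.0e-07) and −1.34 ± 0.27 in HCl (adjusted p = 0.00034), and these calls remained in all fits that left out a replicate. The library sums gave −1.85 ± 0.27 in CA1 against DG (adjusted p = 4.1e-10), −1.34 ± 0.27 in CA1 against CA3 (adjusted p = 4.3e-05, and 0.1 without TE) and −0.51 ± 0.24 in CA3 against DG (adjusted p = 0.23). Col1a1 differed by −1.32 ± 0.30 in CA1 against DG (adjusted p = 0.00022) and −1.14 ± 0.30 against CA3 (adjusted p = 0.0042). Without TE the adjusted p became 0.13 and 0.62.

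Col3a1 (chromosome 1, 45311538 to 45349706) stood at 5.47, 6.56, 8.05 and 15.7 CPM in CA1 and at 22.5, 27.8, 27.2 and 30.1 CPM in CA3 of HCl, and at 4.59, 4.52, 10.8 and 8.10 against 14.7, 33.3, 24.7 and 17.6 CPM in TE. CA1 lay below CA3 without overlap in both, by log2 differences of −1.90 ± 0.37 and −1.77 ± 0.39 (adjusted p = 0.00073 and 0.0047), in all fits that left out a replicate. DG held 30.5, 17.0, 35.2 and 27.2 CPM in TE and 5.68, 18.6, 35.5 and 0 CPM in HCl, so that it lay above CA1 in TE (−1.95 ± 0.40, adjusted p = 0.00071) and spread over the whole range in HCl. Col3a1 differed over the library sums by −1.74 ± 0.38 in CA1 against DG and −1.74 ± 0.37 against CA3 (adjusted p = 0.00015 and 0.00013). Without TE the adjusted p rose to 0.17 and 0.25, and the difference from CA3 was also lost without HCl.

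Markers of other cells varied beside these genes. The 7 measured fibroblast genes summed to 546.9 CPM in CA1 (400.7 to 715), 520.6 in CA3 (384.9 to 664.7) and 949.3 in DG (596.3 to 1159) in TE, and to 793.3, 1162 and 984.6 CPM in HCl. Over the library sums 3 of the 7 were lower and 1 higher in CA1 than in DG, with a median of −1.15. Choroid plexus genes, whose source borders the hippocampus, ranged from 36.75 to 356.2 CPM in CA1, 159.7 to 1093 in CA3 and 57.74 to 2657 in DG of TE, and from 221.3 to 3248, 49.23 to 382.7 and 55.84 to 2340 CPM in HCl. The part of these cells in the collagen I and III differences was not tested.

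**Figure D4:**
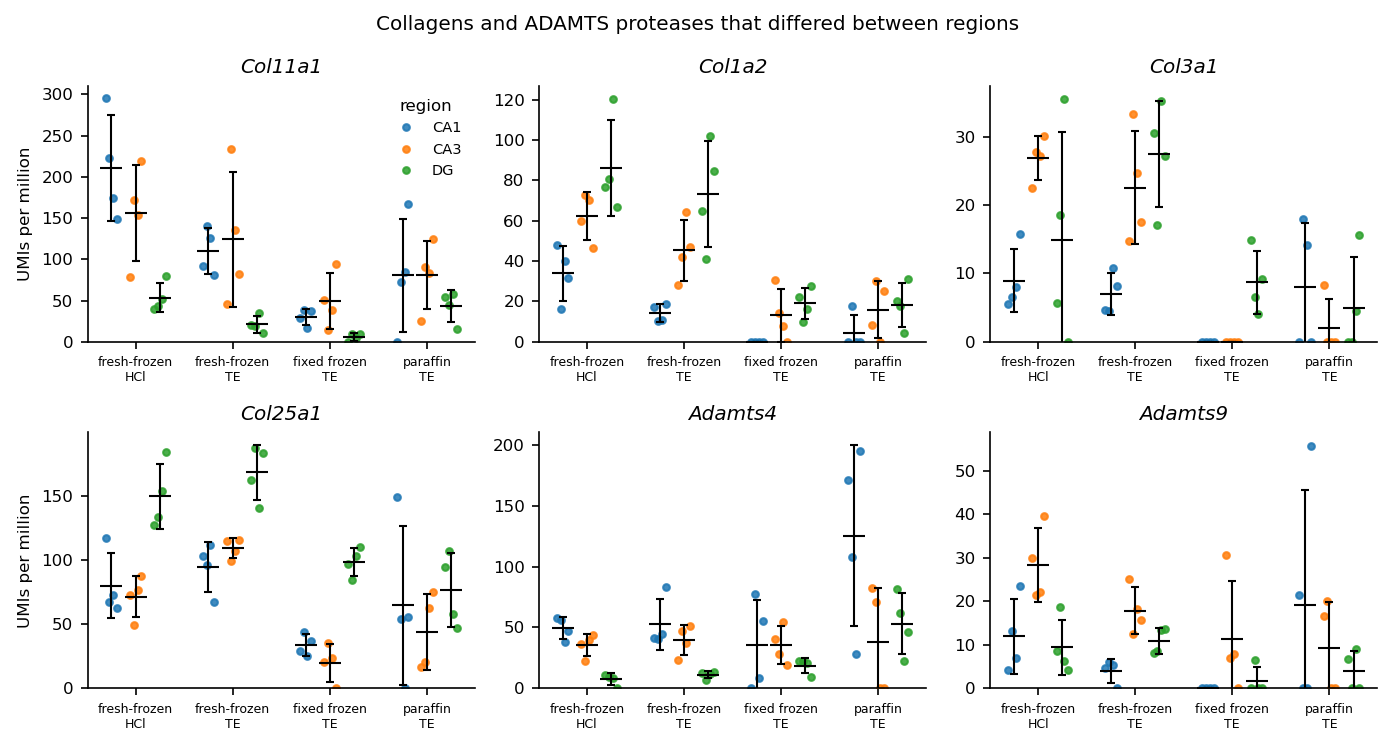
CPM per replicate, with mean and SD, of Col11a1, Col1a2, Col3a1, Col25a1, Adamts4 and Adamts9 by condition and region. Col11a1 and Adamts4 are lowest in DG in the fresh-frozen sections, Col25a1 is highest there, and Col1a2 and Col3a1 are lowest in CA1.

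The transmembrane collagen Col25a1 (chromosome 3, 130131501 to 130599877, plus strand), a neuronal membrane collagen known as a component of amyloid plaques, was higher in DG. In HCl it stood at 128, 133, 154 and 184 CPM in DG, at 118, 67.2, 72.5 and 62.9 CPM in CA1 and at 72.9, 49.3, 76.5 and 87.5 CPM in CA3. In TE it stood at 163, 187, 141 and 183 CPM in DG, at 103, 96.4, 112 and 67.5 in CA1 and at 115, 98.9, 107 and 115 in CA3. In fixed frozen sections it stood at 96.9, 84.7, 103 and 110 CPM in DG, at 29.0, 44.2, 25.6 and 36.9 in CA1 and at 20.4, 35.3, 23.5 and 0 in CA3. All DG replicates lay above all others in these 3 conditions. In paraffin DG held 94.9, 107, 58.3 and 46.7 CPM and CA1 149, 54.0, 0 and 55.7 CPM, with overlap.

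Col25a1 differed by −0.82 ± 0.21, −0.77 ± 0.18 and −1.48 ± 0.42 in CA1 against DG in HCl, TE and fixed frozen (adjusted p = 0.0051, 0.0035 and 0.0081), and by −1.02 ± 0.19, −0.58 ± 0.17 and −1.99 ± 0.45 in CA3 against DG (adjusted p = 0.00082, 0.032 and 0.00038). Of these, CA3 against DG in TE held in 3 of 8 fits that left out a replicate, and DESeq2 did not call CA1 against DG in fixed frozen. Over the library sums the differences were −0.88 ± 0.20 and −1.04 ± 0.20 (adjusted p = 0.0003 and 8.5e-06). Col13a1, a transmembrane collagen of neuromuscular junctions, had 1 UMI in CA1 and 16 in DG of HCl (ratio 18.5, 95% exact interval 2.87 to 775). It passed the filter there only through DG. Its library sum difference of −2.04 ± 0.70 (adjusted p = 0.038) became −1.03 (adjusted p = 0.75) without HCl. Collagens VI, XXVI and XXVIII and the FACIT collagens had 0 calls between regions over the library sums by edgeR. Of these, Col19a1, a FACIT collagen that interneurons express, was higher in CA1 of HCl than in DG (0.94 ± 0.31, adjusted p = 0.027) and than in CA3 (0.95 ± 0.30, adjusted p = 0.041), calls that each held in 3 of 8 fits that left out a replicate.

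Of the ADAMTS proteases, Adamts4 (chromosome 1, 171250421 to 171260637, plus strand), an aggrecanase that cleaves lecticans and is made by oligodendrocytes, was higher in both CA regions than in DG. Its level in HCl was 57.5, 55.7, 38.0 and 47.1 CPM in CA1, 36.5, 22.5, 39.5 and 43.8 in CA3 and 11.3, 9.31, 8.88 and 0 in DG. In TE it stood at 41.3, 40.7, 44.6 and 83.7 CPM in CA1, at 23.6, 46.8, 37.5 and 50.8 in CA3 and at 12.2, 6.82, 11.7 and 13.6 in DG. No DG replicate reached those of CA1 or CA3. In the fixed tissues CA1 and DG overlapped, with 0, 77.4, 8.53 and 55.4 CPM in CA1 and 22.4, 22.8, 20.6 and 9.17 CPM in DG of fixed frozen sections, and 171, 108, 28.2 and 195 CPM against 81.3, 62.2, 22.4 and 46.7 CPM in paraffin.

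Against DG, Adamts4 was higher in CA1 by 2.55 ± 0.38 in HCl and 2.22 ± 0.35 in TE (adjusted p = 3.4e-06 and 1.1e-05), and in CA3 by 2.09 ± 0.39 and 1.91 ± 0.35 (adjusted p = 0.00061 and 0.00034), in all fits that left out a replicate. The library sums gave 1.77 ± 0.26 in CA1 and 1.36 ± 0.26 in CA3 (adjusted p = 4.4e-10 and 8.2e-06). The oligodendrocyte genes given beside Hapln2 were higher in the same regions, and their part in the Adamts4 difference was not tested.

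Adamts9, a protease that cleaves versican and aggrecan, was highest in CA3. It stood at 30.0, 21.4, 22.2 and 39.7 CPM in CA3, at 4.10, 13.1, 6.90 and 23.6 in CA1 and at 8.52, 18.6, 6.35 and 4.19 in DG of HCl, and at 25.1, 12.6, 18.2 and 15.6 against 4.59, 6.03, 5.40 and 0 in CA1 and 8.13, 8.52, 13.4 and 13.6 in DG of TE. CA3 lay above CA1 in every TE replicate, with 1 CA1 replicate inside the CA3 range in HCl. It was lower in CA1 than in CA3 by log2 differences of −1.71 ± 0.40 and −1.94 ± 0.46 in HCl and TE (adjusted p = 0.0041 and 0.009), in all fits that left out a replicate. In the library sums CA1 against CA3 was −1.77 ± 0.37 (adjusted p = 0.00013) and CA3 against DG 1.20 ± 0.35 (adjusted p = 0.011), and both calls were lost without HCl or without TE.

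Adamtsl1 (punctin), a matrix protein of the ADAMTS-like group without protease activity, was also highest in CA3 over the library sums. CA1 and DG were not called apart there for either gene. In paraffin all 12 Adamtsl1 UMIs of CA3 came from replicate 1. Adamtsl1 stood at 32.2, 23.6, 38.3 and 39.7 CPM in CA3 and 12.3, 18.0, 13.8 and 15.7 CPM in CA1 of HCl. In TE it stood at 32.4, 20.7, 24.7 and 23.4 against 14.9, 7.53, 8.10 and 10.8 CPM. CA3 lay above CA1 without overlap. The differences of CA1 from CA3 were −1.23 ± 0.31 and −1.25 ± 0.34 (adjusted p = 0.01 and 0.027), the TE call holding in 3 of 8 fits that left out a replicate. In the library sums CA3 against DG was 1.32 ± 0.31 (adjusted p = 0.00054) in all fits that left out a condition, and CA1 against CA3 was −1.10 ± 0.31 (adjusted p = 0.012), which was lost without HCl or without TE.

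Adamts17, a secreted protease linked to fibrillin, was lower outside the DG, at 12.2, 10.2, 16.8 and 20.4 CPM in DG against 0 to 8.10 CPM in CA1 and 1.95 to 5.40 CPM in CA3 of TE, with no overlap. The differences in TE were called in both regions (adjusted p = 0.026 in CA1 and 0.025 in CA3), but each was lost with DESeq2 and held in 4 of 8 fits that left out a replicate. In HCl the groups overlapped, with 0, 15.5, 26.6 and 29.3 CPM in DG, 0 to 8.21 CPM in CA1 and 5.36 to 9.65 CPM in CA3. Its library sums differed by −1.90 ± 0.45 in CA1 and −1.38 ± 0.40 in CA3 (adjusted p = 0.00052 and 0.01), each lost without HCl or without TE, and the latter also with DESeq2. Adamts8 differed by −1.39 ± 0.45 in CA1 against CA3 (adjusted p = 0.047), also lost without either. Adamts2, a procollagen protease, Adamts20, Adamtsl4, Col5a1, Lama1, Col9a3 and Col4a4 were called in fresh-frozen sections alone and are named after their values were seen. Adamts20 was lower in CA1 and CA3 than in DG in HCl. Col4a4 had 1 UMI in CA1 and 18 in DG of TE (ratio 24.2, 95% exact interval 3.82 to 1008), and passed the filter there only through DG.

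Conditions were compared over all 3 regions, with 12 replicates each and the region as a term. The 12 were fitted as independent samples, but the sources do not say whether regions of a condition came from the same mice, and same-numbered replicates deviated together across the regions of TE (r 0.18 to 0.338) and between CA3 and DG of HCl (r 0.228 to 0.433). If regions share mice, these p-values are too small. Against TE, HCl sections had 22 members higher and 4 lower of 81 tested (16.2% and 14.3% of all genes), with a median of 0.41 for members and 0.10 for all genes. Fixed frozen sections against TE had 0 higher and 34 lower of 70 (15.8% and 32.9%), with medians of −1.16 and −0.39. Paraffin against fixed frozen sections had 17 higher and 0 lower of 46 (13.7% and 14.4%), with medians of 0.90 and 0.05. In all 3 comparisons the members thus moved mainly in 1 direction while all genes were called in both. Members that passed the filter did so partly through the condition in which they were higher, and the members were fewer where a fixed tissue was compared. With 6 library sums in place of the replicates, the calls were 18 in fixed frozen against TE and 7 in paraffin against fixed frozen. Of all genes 2382 were then higher and 3625 lower of 15878 in the former, and 1092 and 1394 of 12189 in the latter.

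Depth and scaling moved the all-gene values. With every replicate thinned to equal depth, 1271 genes were higher and 1369 lower of 8936 tested in fixed frozen against TE. Higher genes then made up 48.1% of all calls in place of 32.4%, and the median of all genes was −0.06 in place of −0.39. Of 22 members then tested 0 were higher and 4 lower. In paraffin against fixed frozen the thinned share was 58.6%, with 821 genes higher and 579 lower of 8920. Of the members 4 were higher and 0 lower of 22. The members were not tested against these shares of all genes. With DESeq2's size factors in edgeR, higher genes made up 65.7% of all calls in paraffin against fixed frozen in place of 48.7%. The median of all genes rose from 0.05 to 0.22. Then 20 members were higher and 0 lower, beside 2353 higher and 1231 lower of all 12189 genes. Leaving out replicate 1 or 3 of each library in that comparison left 5 and 8 calls in place of 17.

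**Figure D5:**
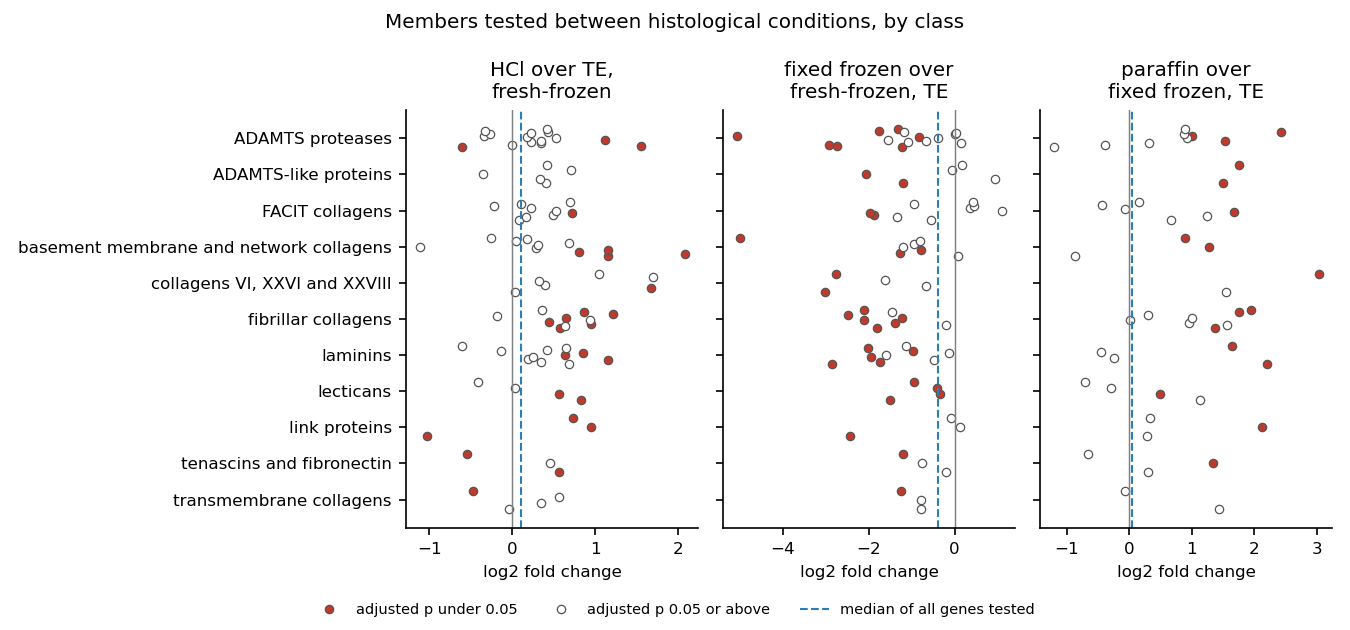
Log2 fold changes (x axis) of the members tested, by class (y axis), for HCl against TE, fixed frozen against TE and paraffin against fixed frozen. The dashed line is the median of all genes (0.10, −0.39 and 0.05), and most fibrillar collagens and laminins lie to its left in fixed frozen against TE.

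Between the permeabilizations of fresh-frozen tissue, several collagens and laminins were higher in HCl than in TE. Col4a2 ranged from 62.9 to 168 CPM in HCl (median 107) and from 25.6 to 63.5 CPM in TE (median 37.1), and Col4a1 from 47.0 to 134 (median 105) and from 30.5 to 66.2 (median 48.6). The ranges met at their edges for Col4a2 and overlapped for Col4a1. The differences were 1.15 ± 0.14 for Col4a2 and 0.81 ± 0.13 for Col4a1 (adjusted p = 5.6e-09 and 2.6e-06). Of 10 fibrillar collagen genes tested 6 were higher, of 11 basement membrane and network collagens 4, and of 11 laminins 3, with 0 lower in these classes. The link proteins had 2 higher and 1 lower of 3, the lecticans 2 higher and 0 lower of 4, the FACIT collagens 1 and 0 of 9, and the transmembrane collagens 0 and 1 of 4. The share of all genes called higher was 16.2%, and the classes were not tested against each other. Col6a1, of the beaded filament collagen VI, rose by 1.67 ± 0.34 (adjusted p = 9.4e-05), Col1a1 by 0.95 ± 0.21 (adjusted p = 0.0003), Lamb2 by 0.85 ± 0.17 (adjusted p = 0.00011) and Lamb1 by 0.63 ± 0.13 (adjusted p = 8.1e-05). Col5a1, Col15a1 and Col5a2 rose by 1.22 ± 0.34, 1.15 ± 0.32 and 0.86 ± 0.29, the last lost without replicate 1 or 3.

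Vascular marker genes moved with them. Of 8 endothelial genes 5 were higher in HCl and 0 lower, with summed means of 416.7 to 485.9 CPM against 302.8 to 360.7 CPM in TE. Of 8 mural genes 5 were also higher, with 352.5 to 464 CPM against 227.6 to 275.7 CPM, and their part in the result was not tested.

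Neural matrix genes split between the permeabilizations. Hapln4 rose by 0.73 ± 0.12 and Bcan by 0.56 ± 0.10 in HCl (adjusted p = 3.2e-06 and 5.3e-06), with Bcan at 204 to 373 CPM (median 286) against 141 to 208 CPM (median 176). Acan rose by 0.83 ± 0.31 (adjusted p = 0.039), which became 0.34 (adjusted p = 0.51) without replicate 1. Hapln1 was lower (−1.03 ± 0.15, adjusted p = 4.3e-07), with a median of 37.7 CPM against 60.4 CPM, as were Col25a1 (−0.48 ± 0.12, adjusted p = 0.001), Adamts1 (−0.61 ± 0.18, adjusted p = 0.0068, lost without replicate 2 or 3) and Tnr (−0.55 ± 0.17, adjusted p = 0.012, lost without replicate 2). For Tnr the sign changed when replicates were thinned to equal depth (0.08, adjusted p = 0.95).

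Fixed frozen sections held less of most members, to unequal degrees. Of 8 fibrillar collagens tested 6 were lower in fixed frozen than in TE sections, of 9 laminins 5, of 15 ADAMTS proteases 7, of 7 basement membrane and network collagens 3, and all 4 lecticans, beside 32.9% of all genes. The FACIT collagens had 2 lower of 9, the ADAMTS-like proteins 2 of 5, and collagens VI, XXVI and XXVIII 2 of 4. The link proteins, the tenascins with fibronectin, and the transmembrane collagens had 1 lower of 3 each. The shares of the ADAMTS proteases and of the basement membrane collagens lay closer to that of all genes than those of the fibrillar collagens and lecticans. The classes were not tested against each other or against all genes. Hapln1 fell from a median of 60.4 CPM (35.1 to 86.4) to 11.8 CPM (0 to 29.3) with no overlap, a log2 difference of −2.43 ± 0.29 (adjusted p = 1.5e-11). Col3a1 ranged from 4.52 to 35.2 CPM in TE and from 0 to 14.9 CPM in fixed frozen (−2.49 ± 0.47, adjusted p = 6.1e-06), and Col1a2 from 10.5 to 102 and from 0 to 30.6 CPM (−2.10 ± 0.32, adjusted p = 4.1e-08). Col11a1 (−1.81 ± 0.28), Col19a1 (−1.97 ± 0.41), Col16a1 (−1.88 ± 0.52), Lamc1 (−2.02 ± 0.49), Col25a1 (−1.25 ± 0.18) and Tnr (−1.21 ± 0.26) were also lower. At equal depth the calls of Hapln1, Col19a1, Lamc1 and Tnr were lost.

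Bcan and Ncan fell least among the lecticans, by log2 differences of −0.34 ± 0.13 and −0.42 ± 0.16 (adjusted p = 0.03 and 0.023), close to the median of all genes. The Bcan call was lost without replicate 1 or 3 and the Ncan call without replicate 1, and both were lost over 6 library sums (−0.19 and −0.30, adjusted p = 0.41 and 0.24) and at equal depth. Vcan differed by −0.95 ± 0.33 (adjusted p = 0.012) and Acan by −1.50 ± 0.62 (adjusted p = 0.037), which rested on 5 UMIs in fixed frozen sections and was lost without replicate 1, 2 or 4 and over the 6 library sums. Hapln4 (−0.09 ± 0.20, adjusted p = 0.72), Lamb1 (−0.13 ± 0.21, adjusted p = 0.64) and Fn1 (−0.21 ± 0.31, adjusted p = 0.6) were not called. Of the genes with 0 UMIs in fixed frozen sections, Adamts3 and Col8a2, named after their values were seen, had 81 and 60 UMIs in TE and were at least 5.62-fold and 4.16-fold lower against 3 counts over the group. Vascular markers were lower too, with 6 of 8 endothelial and 6 of 6 tested mural genes, at summed means of 97.81 to 156.9 and 35.52 to 59.11 CPM. Astrocyte genes were lower in 6 of 8. Their part in the result was not tested.

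Paraffin sections held more of several members than fixed frozen sections. Col4a1 ranged from 21.3 to 146 CPM in paraffin (median 55.4) and from 0 to 57.9 CPM in fixed frozen (median 16.8), and Col11a1 from 0 to 167 (median 65.1) and from 0 to 94.7 (median 23.0), so that the groups overlapped. The differences were 1.27 ± 0.36 and 1.37 ± 0.35 (adjusted p = 0.0032 and 0.00089), and both held without any single replicate number. Hapln2 was higher by 2.12 ± 0.59 (adjusted p = 0.0025), beside oligodendrocyte genes of which all 8 were higher, and Adamts4 by 1.00 ± 0.32 (adjusted p = 0.011), or 0.56 (adjusted p = 0.32) without replicate 1. Col4a2 (0.89 ± 0.35, adjusted p = 0.046) and Tnc (1.34 ± 0.53, adjusted p = 0.046) were called but lost without any of the 4 replicate numbers, and Bcan (0.49 ± 0.18, adjusted p = 0.034) fell to 0.15 (adjusted p = 0.7) without replicate 3. All 3 were also lost over the 6 library sums (adjusted p = 0.09, 0.076 and 0.17), whereas Col4a1, Col11a1, Hapln2 and Adamts4 were called there too. The Col4a1 call was lost at equal depth. Hapln4 differed by 0.34 ± 0.26 (adjusted p = 0.34), Lamb1 by −0.24 ± 0.32 and Col25a1 by −0.07 ± 0.29.

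Markers of other cells moved in the same comparison. The summed means of the fibroblast genes were 1449 to 2150 CPM in paraffin and 522.1 to 592 CPM in fixed frozen sections. Of 5 tested, 2 were called higher and 0 lower (median −0.39). In CA1 of paraffin 4 of the 7 measured genes (Dcn, Lum, Slc6a13 and Slc22a6) had 0 UMIs, so the sum there came from the other genes of the list. Endothelial genes summed to 121.4 to 214.3 CPM against 97.81 to 156.9 CPM (1 of 7 higher, 0 lower), and mural genes to 60.6 to 114.8 CPM against 35.52 to 59.11 CPM (median log2 difference 0.78 over 4 tested). Of 3 choroid plexus genes tested 2 were higher. Their part in the collagen differences was not tested.

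Whether a regional difference depended on the condition was tested by interaction terms against TE. In CA1 against DG, 1 of 75 members was called for HCl (1.41% of all genes), 0 of 63 for fixed frozen (0.350%) and 0 of 65 for paraffin (0.947%). In CA3 against DG, 0 of 77 were called for HCl (0.102%), 0 of 65 for fixed frozen (0.341%) and 0 of 67 for paraffin (0.405%). At an unadjusted level under 0.05 edgeR gave 10, 2, 6, 3, 6 and 4 members in these tests, and DESeq2 called 0 in each. The single call was Lama4, the alpha 4 chain of vascular laminins, at 7.75 ± 2.57 CPM in CA1 and 2.07 ± 1.76 in DG of HCl, but at 2.30, 3.01, 2.70 and 0 CPM in CA1 and 8.13, 11.9, 5.03 and 6.79 CPM in DG of TE (interaction 3.56 ± 0.98, adjusted p = 0.048).

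Genes around the members were followed in lists chosen for their roles. Of all genes over the library sums, 4.64% were higher and 5.52% lower in CA1 than in DG. The shares were 3.88% and 4.30% in CA3 against DG, and 2.05% and 2.61% in CA1 against CA3. Of 37 other matrix proteins tested over the library sums, 3 were higher and 9 lower in CA1 than in DG, 2 and 3 in CA3 than in DG, and 1 and 6 in CA1 than in CA3. Smoc2, a calcium-binding matrix protein, was lower in CA1 than in DG (−3.14 ± 0.30, adjusted p = 8.4e-23) and than in CA3 (−3.42 ± 0.29). Dcn (decorin), which binds collagen fibrils, was lower in CA1 than in DG (−1.87 ± 0.34), the direction of Col1a2 and Col3a1, and it also stands in the fibroblast list. Matn2 was higher there (1.15 ± 0.20). Spock1 was higher in CA3 than in DG (1.36 ± 0.17), but it also stands in the CA3 neuron list by which the titles were followed, so this is no separate result. Of 28 matrix receptors 1 was higher and 3 lower in CA1 than in DG and 2 and 4 in CA3 than in DG, among them the integrin alpha subunits Itga11 (−4.57 ± 0.74 in CA1) and Itga7 (−1.37 ± 0.26 in CA1), and Itga8 in CA3 (−1.61 ± 0.28).

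Of 21 collagen-modifying enzymes and chaperones tested, 1 was higher and 3 lower in CA1 than in DG, with P4hb, the beta subunit of prolyl hydroxylase, higher (1.00 ± 0.25), and 0 higher and 1 lower in CA3 than in DG. Between permeabilizations 8 were higher in HCl than in TE and 0 lower (16.2% and 14.3% of all genes), with P3h3, a collagen prolyl 3-hydroxylase, at 2.37 ± 0.33. Of 17 other matrix proteases and inhibitors 0 were higher and 2 lower in CA1 than in DG, and 0 and 1 in CA3 than in DG, with the inhibitor Timp3 lower in both (−1.26 ± 0.36 and −1.36 ± 0.35). Of 21 genes of hyaluronan and chondroitin sulfate synthesis 1 was higher and 3 lower in each, with the hyaluronan-degrading Cemip (−1.67 ± 0.34 and −1.89 ± 0.34) and the sulfotransferase Chst15 (−0.98 ± 0.21 and −0.84 ± 0.20) lower in both. In fixed frozen against TE sections these lists had 1 higher and 13 lower of 33 other matrix proteins, 0 and 11 of 24 receptors, 1 and 5 of 20 enzymes, 0 and 6 of 13 proteases and inhibitors, and 3 and 5 of 20 synthesis genes. Of all genes 15.8% were higher and 32.9% lower there, and the lists were not tested against these shares.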

How the data were processed

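The authors trimmed and aligned CEL-seq2 reads with HISAT2 2.1.0 to GRCm38, assigned them with featureCounts 1.6.4 and counted UMIs with UMI-tools 1.0.0 (6-base UMIs, unique method). The annotation release is not given in the sources used here. The deposited table holds these raw UMI counts per gene for 48 barcoded replicates in 12 libraries, and 0 of its columns were left unused. The largest member count was 300 of 4096 possible UMIs. The authors' own comparisons used DESeq2 1.20.0.

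CPM values were computed here from the deposited counts over each replicate's total. Tests were run with edgeR 4.0.16 (quasi-likelihood, TMM scaling, at least 10 UMIs summed over the samples compared, Benjamini-Hochberg over all genes tested) in R 4.3.3. Standard errors were the log2 fold change divided by the square root of F. Alternatives were DESeq2 1.42.0, its size factors in edgeR, no filter, all 3 regions in the fit, a replicate block, replicates thinned to 35932 UMIs, leaving out each replicate or condition, and library sums or 48 replicates in place of each other. The fits were tested on simulated data. Positions and exon overlaps came from GENCODE M21 (GRCm38) and the sequence from RefSeq (GRCm38.p6).

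Members and gene lists were chosen with earlier results of these data known. Genes named with values were those called in the same direction in 2 or more conditions or in the library sums, up to 8 called members with at least 100 UMIs per direction and pair of conditions, the 10 members with the most UMIs, the lecticans, link proteins, tenascins and Fn1, the interaction call, and the 3 lowest adjusted p of each list. Col5a1, Lamb1, Col4a1 and Col19a1 also appear in comparisons outside this rule.

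The replicate numbers paired the samples where the deviations of every same-numbered pair from the group means correlated above 0.1. This held in 4 region comparisons: CA3 against DG in HCl (r 0.228 to 0.433), and in TE CA1 against DG (0.219 to 0.314), CA3 against DG (0.213 to 0.312) and CA1 against CA3 (0.18 to 0.338). There the block gave 13, 12, 10 and 8 called members in place of 10, 9, 8 and 6. Depth limits the precision of each value, and exact intervals and floors cover counting error only.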

Additional observations from a re-analysis of the deposited data

Results flagged for a closer look

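In groups of 4 replicates, 276 groups (144 sums over a class or all members and 132 of 11 members) were checked by Dixon's 95% critical value. It flags a replicate whose gap to the nearest other is too wide a share of the group's range. With continuous normal values this happens by chance in about 1 of 20 groups. A replicate was flagged in 13 groups. Among the sums these were collagens VI, XXVI and XXVIII in CA1 of fixed frozen sections (5.53 CPM), laminins in DG of paraffin (149 CPM), lecticans in CA3 of paraffin (481 CPM), link proteins in DG of HCl (124 CPM) and of paraffin (15.6 CPM), and tenascins with Fn1 in DG of fixed frozen sections (52.2 CPM). Among members they were Adamts4 in CA1 of TE (83.7 CPM) and in DG of fixed frozen sections (9.17 CPM), Col1a2 in CA1 of paraffin (18.0 CPM), Bcan in CA3 of paraffin (356 CPM), Hapln1 in CA3 of HCl (34.6 CPM), and Col4a1 in CA1 of fixed frozen sections (57.9 CPM) and in CA3 of paraffin (146 CPM). The values of collagens VI, XXVI and XXVIII and of Col1a2 each rest on 1 UMI. All other replicates of those groups were at 0, where the rule flags any count.

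Lama4 was the 1 of 75 members called for a CA1 against DG difference that depended on the permeabilization (1.41% of all genes). The interaction was 3.56 ± 0.98 on the log2 scale (edgeR adjusted p = 0.048). Its UMIs were 18 in CA1 and 4 in DG of HCl, and 6 and 16 in TE. Within HCl and within TE, Lama4 was not called between CA1 and DG. DESeq2 called 0 members in the interaction test.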

How the results depend on the processing

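Over the single-gene calls named in the text, alternatives other than leaving out samples kept direction and call in 634 cases, lost the call in 125 and reversed the direction in 1, Tnr in HCl against TE when thinned (0.08). Leaving out a replicate or condition kept 612 and lost 191. Calls per comparison moved by over 1.5 times as follows, and the cause was not tested except that thinning leaves fewer members to test. Thinned: in HCl CA1 against DG 1, CA3 against DG 0, CA1 against CA3 0, in TE 1, 0 and 0, in fixed frozen 0, 1 and 2, HCl against TE 2, fixed frozen against TE 4, paraffin against fixed frozen 4. DESeq2: in HCl CA1 against DG 10 and CA1 against CA3 3, in TE CA3 against DG 4, in fixed frozen CA1 against DG 0, CA3 against DG 2 and CA1 against CA3 0, in paraffin CA1 against CA3 0, in library sums CA3 against DG 7 and CA1 against CA3 4, and the interaction of CA1 against DG with HCl 0. No filter: CA1 against CA3 in HCl 8 and CA1 against DG in fixed frozen 1. With all 3 regions fitted, CA3 against DG in paraffin gave 2. With 48 replicates fitted in place of sums, CA1 against DG gave 21 and CA3 against DG 18. With 6 library sums, fixed frozen against TE gave 18 and paraffin against fixed frozen 7.

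Where the replicate numbers did not pair the samples, the replicate block gave 10 calls for CA1 against CA3 in HCl and 1 for CA1 against DG in fixed frozen, and 2 and 1 for the interactions of CA1 against DG with HCl and of CA3 against DG with paraffin. In the comparisons with paired numbers it moved no count by over 1.5 times. The lowest same-number correlation was 0.00104, and every replicate correlated best with its own number in CA1 against DG in paraffin and in 3 of the paired comparisons.

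Leaving out a replicate gave 10 to 17 calls in HCl for CA1 against DG, 6 to 10 for CA3 against DG and 3 to 6 for CA1 against CA3, in TE 8 to 11, 4 to 6 and 3 to 5, in fixed frozen 1 to 4, 2 to 5 and 0 to 1, and in paraffin 0 to 1, 1 to 1 and 0 to 1. Fixed frozen CA1 against DG gave 4 without DG replicate 2 and 1 in the other fits, CA3 against DG 2 without CA3 replicate 4, and CA1 against CA3 0 without replicate 3 of CA1 or CA3. Paraffin CA1 against DG gave 1 without CA1 replicate 3. Leaving out a condition gave 7 to 16, 5 to 11 and 1 to 8 over the library sums. Leaving out a replicate number gave 18 to 23 in HCl against TE, 25 to 28 in fixed frozen against TE and 5 to 14 in paraffin against fixed frozen.

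Depth limits the fixed tissues: with at least 5 UMIs required, 42 members were detected in fixed frozen and 48 in paraffin.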
